A study of Mus musculus with 12 samples.

Results

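The genes described here are 37 genes of the unfolded protein response and of protein folding in the endoplasmic reticulum (ER), out of 19938 genes measured. They are the stress sensors and their transcription factors, targets of the PERK branch, chaperones of the ER, disulfide isomerases, components of ER-associated degradation, and subunits of the channel through which proteins enter the ER. Each gene was chosen by its symbol, not by its level, though earlier results of these data were known. It was read from probe sets (groups of oligonucleotide probes on an array) that the platform annotation assigned to that symbol alone. All 37 genes were measured, and none was removed by a filter on dim values. Where a gene had several probe sets, the one with the highest mean over the arrays was used.

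Secreted and membrane proteins fold in the ER, and the unfolded protein response matches the folding capacity of that compartment to its load. Of its branches, IRE1 (Ern1, and Ern2 in mucosal epithelium) splices the mRNA of Xbp1 into the form that encodes an active transcription factor, ATF6 is cut in the Golgi to release a transcription factor, and PERK (Eif2ak3) phosphorylates eIF2-alpha, which lowers translation in general and raises that of Atf4. In the intestine the response is best known from goblet and Paneth cells, which secrete large amounts of protein. An array that reports 1 value per gene does not show splicing, cleavage or phosphorylation, so what follows describes transcript levels and not the activity of a branch. The genes were assigned to the branches by textbook knowledge of their main regulator, and many are shared between IRE1 and ATF6.

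Epithelium was cut by laser from sections of intestinal tumors and from the tissue beside them in male mice at 25 weeks. All mice were on the C57BL6/J APCmin/+ background, in which 1 inactive copy of Apc leads to intestinal adenomas. There were 3 KO tumor arrays and 3 floxed tumor arrays, followed by 2 KO adjacent arrays and 2 floxed adjacent arrays. KO stands for the label FSPCre-PPARB -/-, where a fibroblast-specific protein promoter drives the Cre that deletes Ppard, and floxed stands for PPARB flox/flox littermates, whose Ppard alleles carry loxP sites. A further 2 adjacent arrays had labels that contradict each other on genotype and are called conflict arrays. Conflict array 1 is KO by its title and floxed by its genotype field, and conflict array 2 is the reverse. In the main fits they were used only to compare tissues across the 12 arrays. Alternative fits also placed them in a genotype group, by title or by genotype field. No label says which animal an array came from. If some arrays share an animal, the p-values are too small, and the spread between arrays may be technical in part.

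Before any comparison, the arrays themselves fell apart in a way that runs along the genotype labels. Over all probe sets the 5 KO arrays had correlations of 0.947 to 0.973 among themselves, whereas 4 of the 5 floxed arrays, tumor arrays 1 and 2 and both adjacent arrays, correlated with the rest at only 0.496 to 0.640. These 4 are called weak-signal arrays. The SD of all values within an array was 1.04 to 1.09 on them, against 1.49 to 1.57 on KO arrays, and the median of unnamed probe sets was 4.24 to 4.39, against 3.92 to 3.94 on KO arrays. Only floxed tumor array 3 carried a floxed genotype label without conflict and had strong signal, and it correlated with KO arrays at 0.812 to 0.839. Ppard was not lower in KO arrays: its KO minus floxed difference was 1.14 on the log2 scale in tumor (adjusted p = 0.0991) and 0.78 in adjacent epithelium (adjusted p = 0.230). The deletion is driven in fibroblasts and the arrays hold epithelium, and 4 of the 5 floxed arrays had weak signal. These Ppard values therefore cannot check the genotype labels. The genotype names below are those of the labels. Adenomas that lose Apc are known for high Wnt target genes and few absorptive enterocytes. In a fit on the 5 KO arrays alone, 7 of 13 Wnt target genes were lower and 6 of 14 enterocyte genes higher in the arrays labelled tumor than in those labelled adjacent (list medians -0.94 and 1.69). Of all genes, 1.29% were lower and 0.557% higher in that fit. In the fit shared with the floxed arrays the list medians were the same, but no gene of either list was called. On the KO arrays the direction of both lists goes against the tissue labels. Between the floxed tissues the medians were 0.03 for Wnt targets and 2.30 for enterocyte genes, against -0.01 for all genes. None of these genes was called there, so in floxed only the enterocyte list goes against the labels. Tumor and adjacent below are therefore also names of labels. The median of 10 epithelial markers was 6.58 to 7.23 on KO arrays and 5.13 to 5.72 on weak-signal arrays. The median of 13 exocrine pancreas genes, which mark another secretory cell type, reached 8.34 on floxed tumor array 3, 7.76 on conflict array 1, 6.77 on KO tumor array 2 and 5.81 on floxed adjacent array 2, and was 4.05 to 4.87 on the other 8 arrays. Plasma cell genes had medians of 4.08 to 4.98 on all arrays, but these medians hide Jchain. It read 7.04, 5.04 and 8.77 on floxed tumor arrays 1 to 3 and 5.54, 7.65 and 8.17 on KO tumor arrays 1 to 3. On floxed adjacent arrays 1 and 2 Jchain read 6.10 and 5.35, and on KO adjacent arrays 1 and 2 it read 7.45 and 6.71. The part of plasma cells in the values below was not tested.

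The 37 genes moved with this split. On KO arrays their median lay 1.05 to 1.43 log2 units above the median of all genes, at the 85.0th to 91.0th percentile of genes. On weak-signal arrays it lay only 0.139 to 0.542 above, at the 58.0th to 76.8th percentile. Floxed tumor array 3 stood with the KO arrays at 1.45 above. Conflict arrays 1 and 2 had strong signal (SD 1.54 and 1.52), but their labels do not settle their genotype. Without them, every KO against floxed difference in adjacent epithelium compares strong with weak arrays. Weak signal and genotype cannot be told apart there. In tumor epithelium only floxed array 3 separates them. Since the tissue is a mixture, fewer cells of a type and less RNA per cell cannot be told apart either.

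**Figure D1:**
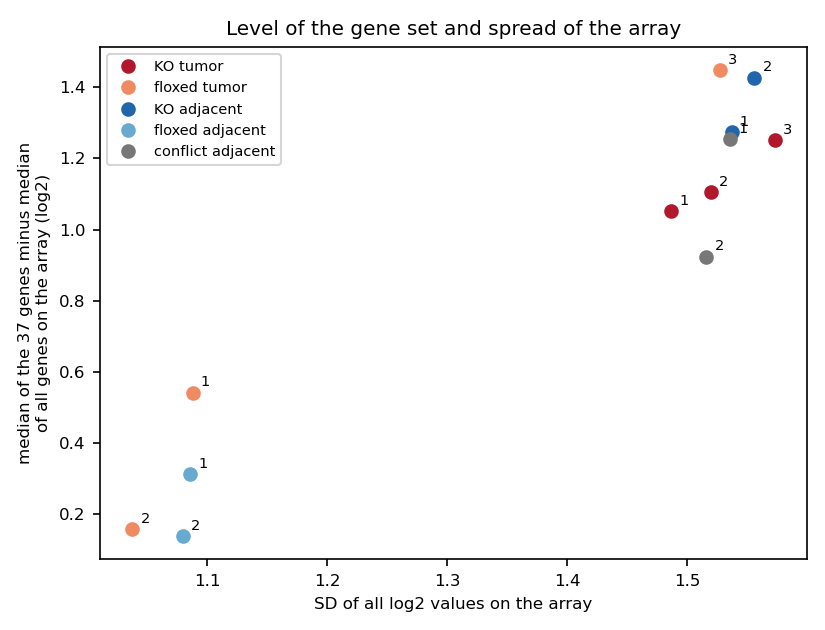
Each point is 1 array, numbered by replicate and coloured by group. The horizontal axis is the SD of all log2 values on the array, and the vertical axis is the median of the 37 genes minus the median of all genes on the same array (log2). The 4 weak-signal arrays, all floxed, lie at the lower left between 0.139 and 0.542, and the other 8 arrays lie between 0.924 and 1.45.

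From the lowest to the highest of the 5 KO arrays, tumor and adjacent together, a gene spanned 0.508 log2 units in the median, 18 genes spanned less than 0.5 and 7 more than 1. Over all genes the median span was 0.443, with 59.5% under 0.5 and 7.5% over 1. Of the 37 genes, 24 lay more than 1 log2 unit above the median of unnamed probe sets on every KO array. The other 13 did not, and their values leave little room for a fall: Ern1, Eif2ak3, Trib3, Ppp1r15a, Asns, Dnajb9, Dnajb11, Manf, Pdia4, Pdia5, Sel1l, Derl2 and Derl3. On weak-signal arrays background touched more of them: 21 of the 37 lay at or below the median of unnamed probe sets of the same array on at least 1 of the 4, and none did on a KO array. On both floxed adjacent arrays 7 genes did so, Eif2ak3, Ppp1r15a, Dnajb9, Manf, Pdia3, Derl2 and Sec61a1, and for these the size of a difference in adjacent epithelium is limited by background.

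**Figure D2:**
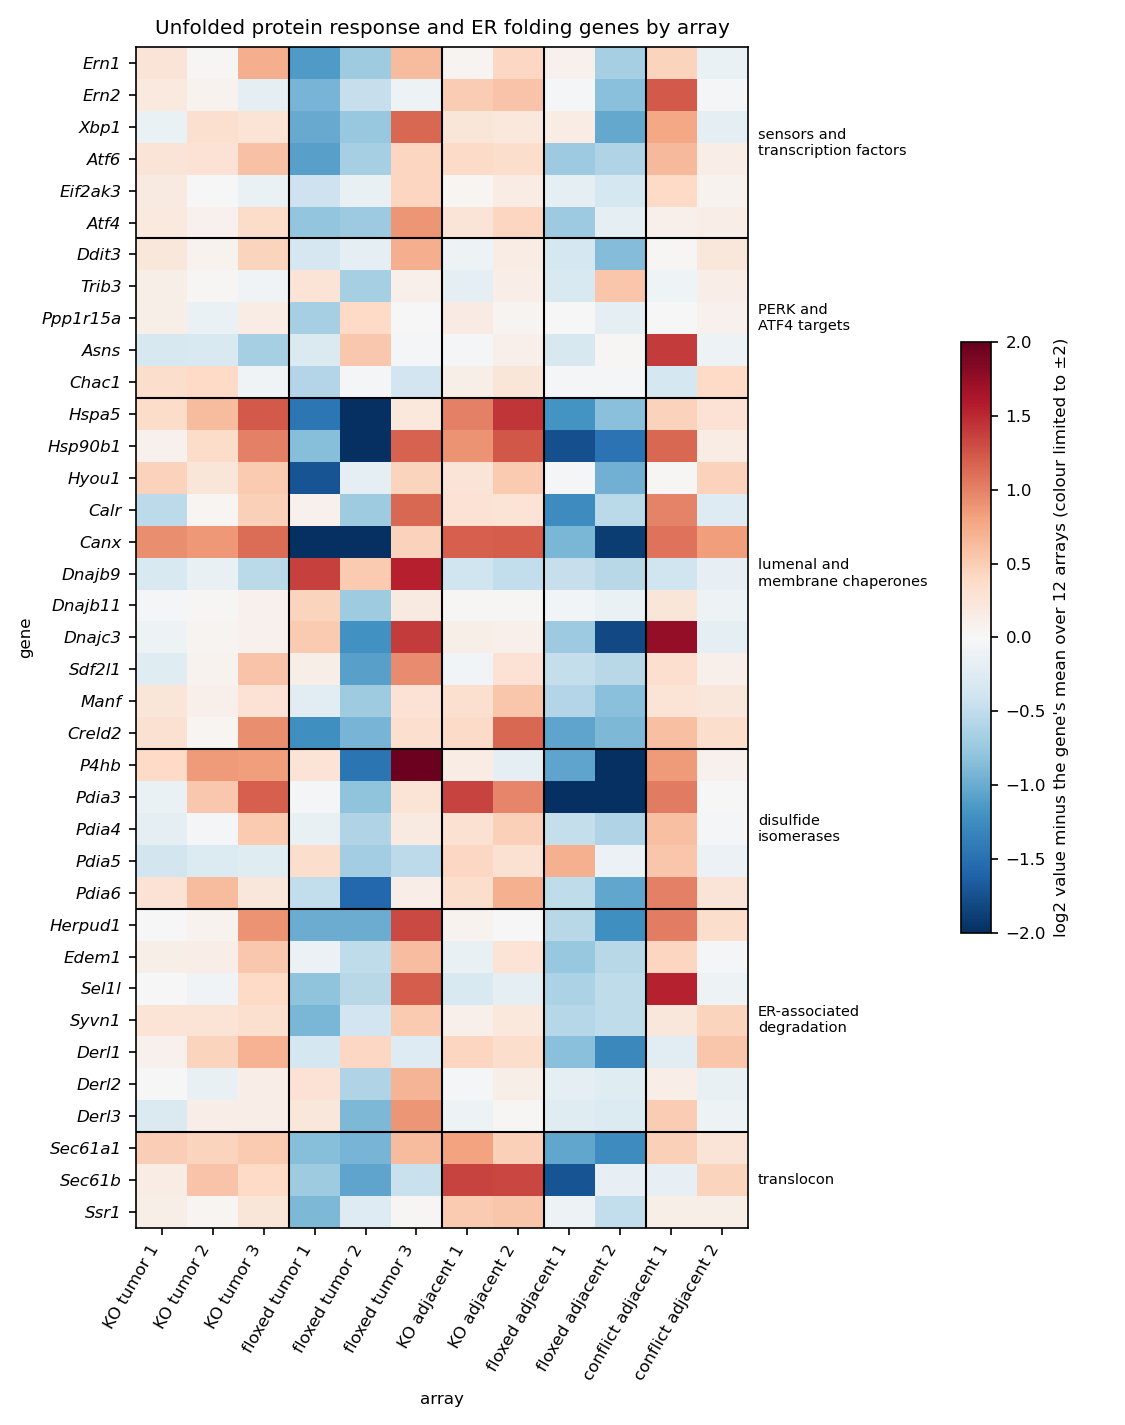
Rows are the 37 genes by role and columns the 12 arrays by group. Colour is the log2 value minus the mean of the gene over 12 arrays, with red above and blue below, limited to 2 units either way. Floxed tumor arrays 1 and 2 and both floxed adjacent arrays are mostly blue, floxed tumor array 3 is mostly red, deepest for P4hb and Dnajb9, and conflict array 1 is deepest red for Dnajc3, Sel1l and Asns.

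In tumor epithelium, KO against floxed, 1 of the 37 genes passed the test, and it was lower: Dnajb9, a co-chaperone of BiP. Lower calls made up 0.396% of all genes, higher calls 0.682% and both 1.08%, and none of the 37 was called higher. The median difference of the 37 genes was 0.43 on the log2 scale, against -0.01 for all genes, and 30 of the 37 differences were above 0, against 49.6% of all genes. At an unadjusted p under 0.05, limma held 9 of the 37, against 23.0% of all genes. The KO and floxed arrays did not overlap in 5 genes that were higher in KO (Hspa5, Canx, Pdia6, Sec61b and Ssr1), where 13.2% of all genes did so, and in 2 that were lower (Dnajb9 and Asns), where 13.9% of all genes did so. By branch, the median difference was 0.41 for 14 IRE1 genes, 0.55 for 16 ATF6 genes and 0.13 for 7 PERK genes. The genes near background named above are Eif2ak3, Trib3, Ppp1r15a and Asns of PERK, Ern1, Dnajb9, Dnajb11, Derl2 and Derl3 of IRE1, and Manf, Pdia4, Pdia5 and Sel1l of ATF6. Whether dim values shaped the order of the branches was not tested.

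In adjacent epithelium, KO against floxed, 4 of the 37 genes rose and none fell: Pdia3, Sec61b, Derl1 and Sec61a1. Higher calls made up 2.91% of all genes there, lower calls 3.15% and both 6.06%. The median difference of the 37 was 0.84, against -0.04 for all genes, and 36 were above 0, against 47.6% of all genes. At an unadjusted p under 0.05, limma held 14 of the 37, against 28.2% of all genes. Both KO arrays lay above both floxed arrays in 32 genes, where 32.1% of all genes did so, and below them in none, where 35.0% of all genes did so. The median was 0.78 for IRE1 genes, of which 3 were called, 1.09 for ATF6 genes, of which 1 was called, and 0.21 for PERK genes, of which none was called. The same genes near background enter these medians. Both floxed adjacent arrays were weak-signal arrays.

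**Figure D3:**
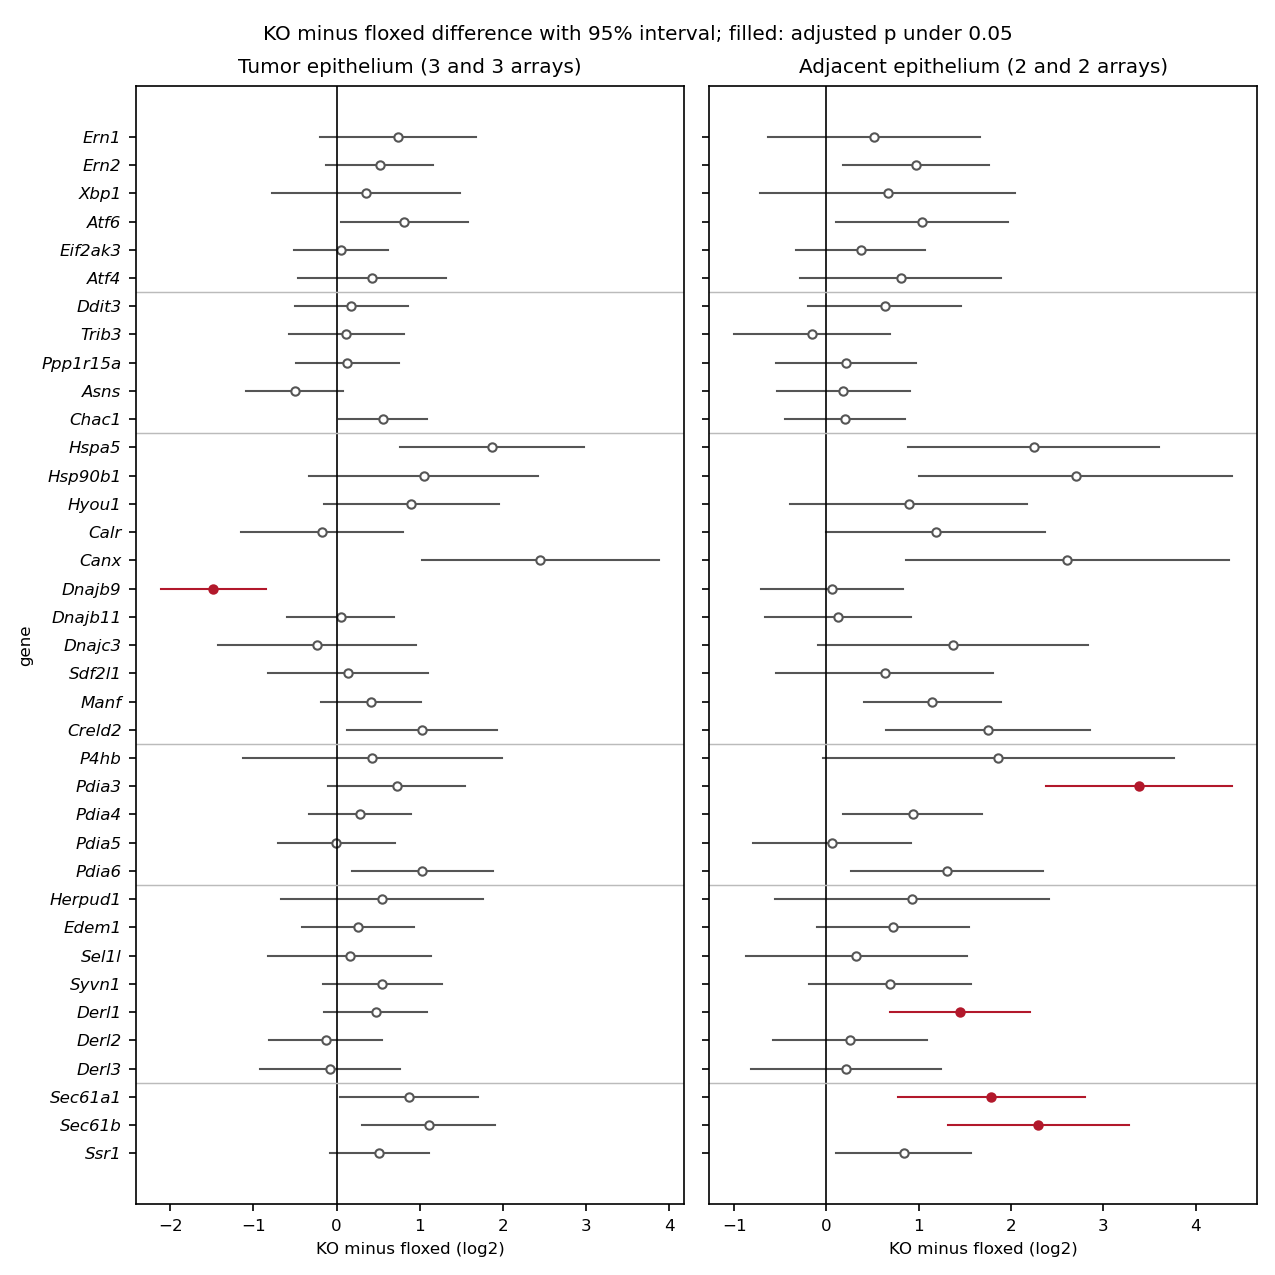
Points are KO minus floxed differences on the log2 scale and bars their 95% intervals, in tumor epithelium on the left (3 KO and 3 floxed arrays) and adjacent epithelium on the right (2 KO and 2 floxed arrays). Filled red points passed at an adjusted p under 0.05: Dnajb9, to the left of 0, in tumor, and Pdia3, Derl1, Sec61a1 and Sec61b, to the right of 0, in adjacent epithelium.

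None of the 6 sensors and transcription factors passed in either tissue. Xbp1, the transcription factor of the IRE1 branch, read 5.70, 6.16 and 6.12 on the KO tumor arrays, against 4.83, 5.09 and 7.0 on the floxed tumor arrays. Floxed array 3 was the highest of these 6 arrays and floxed arrays 1 and 2 the lowest, so the groups overlapped. The difference was 0.35 ± 0.51 (SE; 95% interval -0.78 to 1.48; adjusted p = 0.709). In adjacent epithelium Xbp1 read 6.08 and 6.06 on the KO adjacent arrays, against 5.98 and 4.83 on the floxed adjacent arrays, with KO above floxed by a small margin over array 1 and a large one over array 2. It read 6.62 and 5.66 on conflict arrays 1 and 2, the first being the highest of the adjacent arrays.

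Ern1, which encodes the widely expressed IRE1-alpha, read 5.14, 4.90 and 5.60 on the KO tumor arrays, against 3.74, 4.17 and 5.5 on the floxed tumor arrays. Only floxed arrays 1 and 2 were low, and the difference was 0.74 ± 0.42 (adjusted p = 0.316). Next to the tumors it read 4.93 and 5.29 on the KO adjacent arrays, against 4.97 and 4.22 on the floxed adjacent arrays, and here floxed array 1 overlapped the KO arrays. Ern2, which encodes the IRE1-beta of mucosal epithelium, read 5.68, 5.56 and 5.29 on the KO tumor arrays, against 4.56, 5.03 and 5.39 on the floxed tumor arrays. Floxed array 3 fell inside the KO range, and the difference was 0.52 ± 0.29 (adjusted p = 0.309). Next to the tumors Ern2 read 6.0 and 6.05 on the KO adjacent arrays, against 5.45 and 4.66 on the floxed adjacent arrays. Both KO adjacent arrays lay above both floxed ones, with a difference of 0.97 ± 0.36 that did not pass (adjusted p = 0.110).

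Atf6 had the largest difference of the 6 in both tissues, though it passed in neither. It read 5.31, 5.33 and 5.63 on the KO tumor arrays, against 3.96, 4.37 and 5.48 on the floxed tumor arrays, and floxed array 3 lay between the KO values. KO minus floxed was 0.82 ± 0.35 (adjusted p = 0.192). On the adjacent arrays it read 5.42 and 5.40 on the KO adjacent arrays, against 4.31 and 4.44 on the floxed adjacent arrays, with the KO arrays close together and nearly 1 unit higher. The difference there was 1.03 ± 0.42 (adjusted p = 0.142).

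Eif2ak3, the kinase PERK, read 4.65, 4.45 and 4.33 on the KO tumor arrays, against 4.06, 4.31 and 4.89 on the floxed tumor arrays. The groups overlapped, with floxed arrays both highest and lowest, and the difference was 0.06 ± 0.26 (95% interval -0.51 to 0.62; adjusted p = 0.919). In adjacent epithelium it read 4.50 and 4.62 on the KO adjacent arrays, against 4.26 and 4.11 on the floxed adjacent arrays, a narrow spread on all 4 arrays. Atf4, the transcription factor translated when PERK is active, read 6.02, 5.91 and 6.20 on the KO tumor arrays, against 5.03, 5.10 and 6.71 on the floxed tumor arrays. Floxed array 3 was again highest and floxed arrays 1 and 2 lowest. In adjacent epithelium Atf4 read 6.08 and 6.25 on the KO adjacent arrays, against 5.09 and 5.62 on the floxed adjacent arrays, both KO values above both floxed ones, and neither difference passed (0.43 in tumor, adjusted p = 0.550, and 0.80 in adjacent epithelium, adjusted p = 0.303).

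The 5 targets of PERK and ATF4 had the smallest median differences of the role groups in both tissues, 0.13 in tumor and 0.21 in adjacent epithelium, and none passed. Of these, Trib3, Ppp1r15a and Asns lay near background, where a difference has little room, and the part of dim values was not tested. Chac1, an enzyme that degrades glutathione, read 6.13, 6.18 and 5.72 on the KO tumor arrays, against 5.20, 5.76 and 5.40 on the floxed tumor arrays. Only KO array 3 overlapped the floxed range. The difference was 0.56 ± 0.24 (adjusted p = 0.199), the largest of the 5 in tumor. Asns, asparagine synthetase, read 4.65, 4.66 and 4.30 on the KO tumor arrays, against 4.69, 5.51 and 4.93 on the floxed tumor arrays. All KO values lay below all floxed values, by a margin of 0.03 between the nearest arrays, and the difference of -0.5 ± 0.27 did not pass (adjusted p = 0.282). In adjacent epithelium Asns read 4.95 and 5.07 on the KO adjacent arrays, against 4.65 and 5.0 on the floxed adjacent arrays, with 1 KO array inside the floxed range, and it read 6.37 and 4.87 on conflict arrays 1 and 2, the first being the highest of the 12.

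Ddit3, which encodes the transcription factor CHOP, read 6.37, 6.22 and 6.59 on the KO tumor arrays, against 5.81, 5.95 and 6.88 on the floxed tumor arrays, again with floxed array 3 on top. Next to the tumors it read 6.05 and 6.29 on the KO adjacent arrays, against 5.80 and 5.28 on the floxed adjacent arrays. Here both KO values were above both floxed values, and the difference of 0.63 ± 0.38 did not pass (adjusted p = 0.291). Trib3, a pseudokinase that is a target of CHOP and ATF4, was the only one of the 37 genes with an adjacent difference below 0 (-0.16, adjusted p = 0.813), and it read 4.70 and 5.01 on the KO adjacent arrays, against 4.58 and 5.44 on the floxed adjacent arrays. Floxed array 2 was the high value there. Ppp1r15a, the phosphatase subunit GADD34 that reverses PERK signalling, differed by 0.13 in tumor and 0.21 in adjacent epithelium (adjusted p = 0.808 and 0.708). A wider list of 25 other genes of the integrated stress response and ATF4 gave the same count as these 5, with none called in either tissue and medians of 0.19 and 0.24.

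Chaperones of the lumen and membrane of the ER showed the widest range of differences in tumor epithelium, from -1.48 for Dnajb9 to 2.45 for Canx. Canx, the membrane lectin calnexin that holds glycoproteins during folding, read 7.42, 7.35 and 7.60 on the KO tumor arrays, against 4.12, 3.95 and 6.95 on the floxed tumor arrays. All KO arrays were above all floxed arrays, but floxed array 3 was less than 1 unit below them and arrays 1 and 2 more than 3. KO minus floxed was 2.45 ± 0.65 (adjusted p = 0.0819). In adjacent epithelium Canx read 7.68 and 7.70 on the KO adjacent arrays, against 5.57 and 4.59 on the floxed adjacent arrays, with no overlap, and the difference was 2.61 ± 0.79 (adjusted p = 0.0694). On the conflict arrays it stood near the KO values, at 7.57 and 7.33 on conflict arrays 1 and 2.

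Hspa5, the Hsp70 chaperone BiP that binds unfolded chains and holds the sensors inactive, read 6.84, 7.10 and 7.69 on the KO tumor arrays, against 5.02, 4.33 and 6.68 on the floxed tumor arrays. The lowest KO array was 0.16 above the highest floxed array, so there was no overlap. The difference was 1.87 ± 0.50 (adjusted p = 0.0849). On the adjacent arrays it read 7.48 and 7.90 on the KO adjacent arrays, against 5.27 and 5.63 on the floxed adjacent arrays, again without overlap, with a difference of 2.24 ± 0.62 (adjusted p = 0.0553). Hsp90b1, the ER member of the Hsp90 family, read 6.50, 6.78 and 7.42 on the KO tumor arrays, against 5.56, 4.41 and 7.59 on the floxed tumor arrays. Floxed array 3 was the highest of the 6, and the difference did not pass (1.05 ± 0.63, adjusted p = 0.338). In adjacent epithelium Hsp90b1 read 7.32 and 7.66 on the KO adjacent arrays, against 4.65 and 4.93 on the floxed adjacent arrays, at least 2 units apart, and the difference of 2.70 ± 0.77 was the largest among chaperones there (adjusted p = 0.0596).

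With the replicate number as a block, Canx and Hspa5 passed in tumor epithelium beside Dnajb9 (adjusted p = 0.0303, 0.0251 and 0.0331). That limma fit called 2.15% of all genes higher and 1.77% lower, and the labels do not say what a number shares. The other chaperones did not pass in the fit without a block. Creld2 differed by 1.03 in tumor and 1.75 in adjacent epithelium (adjusted p = 0.174 and 0.0608). Manf, a secreted stress protein of the ER, differed by 0.42 and 1.15 (adjusted p = 0.385 and 0.0629). Calr, the soluble partner of calnexin, differed by -0.18 in tumor and 1.18 in adjacent epithelium. For Hyou1, Sdf2l1, Dnajb11 and Dnajc3, the 4 chaperones not yet given, differences ran from -0.23 to 0.90 in tumor and from 0.12 to 1.37 in adjacent epithelium, and none passed.

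Several of these genes share a promoter element that was found by sequence and not by level. The ER stress element, the site through which ATF6 acts together with NF-Y, is CCAAT followed after 9 bases by CCACG. It was searched on both strands of 300-base promoters from RefSeq (GRCm38.p6), which run from 250 bases before to 50 bases after the start site. Of the 31 genes with a promoter there, 9 held the element (29.0%), against 0.119% of 32851 mouse promoters: Hspa5, Hsp90b1, Calr, Canx, Creld2, Dnajc3, Pdia6, Syvn1 and Derl3. The windows of 6 of these genes, among chaperones, isomerases and degradation, give the element in capitals with 20 bases on either side, 5′ to 3′ on the strand of the gene. Where the capitals start with CGTGG, the element lies on the opposite strand. The positions are chr2:34772005-34772063 (plus strand) for Hspa5, chr10:86705513-86705676 (minus strand) for Hsp90b1, chr15:88819500-88819558 (plus strand) for Creld2, chr8:84847055-84847113 (minus strand) for Calr, chr12:17266471-17266529 (plus strand) for Pdia6 and chr19:6046512-6046570 (plus strand) for Syvn1.
Hspa5: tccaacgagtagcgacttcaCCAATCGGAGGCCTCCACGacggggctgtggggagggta
Hsp90b1: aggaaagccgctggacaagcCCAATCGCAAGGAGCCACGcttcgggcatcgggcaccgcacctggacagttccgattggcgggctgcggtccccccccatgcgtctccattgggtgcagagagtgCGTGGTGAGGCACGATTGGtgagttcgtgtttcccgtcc
Creld2: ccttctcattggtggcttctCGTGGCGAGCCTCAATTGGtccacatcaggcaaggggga
Calr: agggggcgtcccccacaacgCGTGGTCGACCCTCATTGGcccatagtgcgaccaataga
Pdia6: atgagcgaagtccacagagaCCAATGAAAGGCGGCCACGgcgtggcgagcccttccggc
Syvn1: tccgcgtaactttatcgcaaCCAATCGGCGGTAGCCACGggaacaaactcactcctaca

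Hsp90b1 held 2 elements on opposite strands. The element of Syvn1 lay nearest to the start site, at bases -44 to -26, and the farthest was the upstream one of Hsp90b1, at -212 to -194. The 9 genes with the element had a median KO minus floxed difference of 1.03 in tumor and 1.37 in adjacent epithelium, and the 22 genes with a promoter but no element had 0.22 and 0.57. Against floxed tumor array 3 alone, the tumor medians were -0.23 with and -0.37 without the element. The ranges of the first fit overlapped: -0.23 to 2.45 with and -1.48 to 1.11 without in tumor, and 0.21 to 2.70 with and -0.16 to 3.39 without in adjacent epithelium. Both floxed adjacent arrays had weak signal, and the part of the element in these differences was not tested. A second form, ATTGG followed after 1 base by CCACG, was found in Herpud1 and Dnajb11 (6.45%, against 0.0365% of promoters). TGACGTGG, bound by XBP1 and ATF6, was found in 0 of the 31, against 0.676% of promoters. TGATGNAA, the site of ATF4 with C/EBP proteins, was found in Asns, Chac1, Herpud1 and Trib3 (12.9%, against 3.97%). A match is a run of letters and not evidence of binding in this epithelium, and these shares too depend on how the genes were chosen. Hyou1, Atf6, Manf, Sec61a1, Derl1 and Ern2 were not searched.

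Dnajb9, also called ERdj4, is a J-domain co-chaperone of BiP and, in mouse cells, a target of XBP1. It read 4.23, 4.40 and 4.00 on the KO tumor arrays, against 5.91, 5.07 and 6.09 on the floxed tumor arrays. All 3 floxed tumor arrays, of weak and of strong signal, were above all KO tumor arrays, and the gap between the nearest arrays was 0.67. KO minus floxed was -1.48 ± 0.29 (95% interval -2.11 to -0.85; adjusted p = 0.0466), which is 2.79-fold lower in KO tumor epithelium. In adjacent epithelium Dnajb9 read 4.14 and 4.05 on the KO adjacent arrays, against 4.09 and 3.99 on the floxed adjacent arrays, and it read 4.14 and 4.38 on conflict arrays 1 and 2. The 9 arrays other than floxed tumor all lay within 3.99 to 4.40, so the high values belonged to the floxed tumor arrays alone. Of all genes, 143 (0.717%) had the 3 floxed tumor arrays above the 9 others, and Dnajb9 was the only one of the 37.

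The direction held in each of 16 alternative settings, from -1.88 to -1.28, and the adjusted p ranged from 0.00239 to 0.204, below the threshold in 8 of them. It was above the threshold with KO tumor array 1, 2 or 3 or floxed tumor array 1 left out, and highest without KO tumor array 3, at a difference of -1.38 (adjusted p = 0.204). Against floxed tumor array 3 alone, the 1 floxed array left without the weak-signal arrays, the difference was -1.88 (adjusted p = 0.00239). Without that array, and so against floxed tumor arrays 1 and 2, it was -1.28 (adjusted p = 0.00722). The exocrine pancreas genes had a median of 4.26, 4.76 and 8.34 on floxed tumor arrays 1 to 3. On the other arrays where they were raised, conflict array 1, KO tumor array 2 and floxed adjacent array 2, Dnajb9 read 4.14, 4.40 and 3.99, and their part in its values was not tested. Tumor against adjacent within floxed gave 1.66 ± 0.32, which did not pass (adjusted p = 0.182), and the test of whether the genotype difference itself changed between tissues gave -1.54 ± 0.45 (adjusted p = 0.703). Since 9 arrays lie near the median of unnamed probe sets, the size of a fall to that level is limited by background.

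The promoter of Dnajb9 held no complete ER stress element but held its parts, and it was examined after the values were seen. The stretch up to the base before the start site, chr12:44210069-44210196 (minus strand), is printed with CCACG and CCAAT boxes in capitals. The CCAAT at -65 is followed by a CCACG only at -15, with 45 bases between them, in place of the 9 of the element.
Dnajb9: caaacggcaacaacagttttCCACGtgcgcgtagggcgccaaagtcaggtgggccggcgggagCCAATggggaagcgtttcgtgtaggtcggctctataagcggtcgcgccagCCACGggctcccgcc

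**Figure D4:**
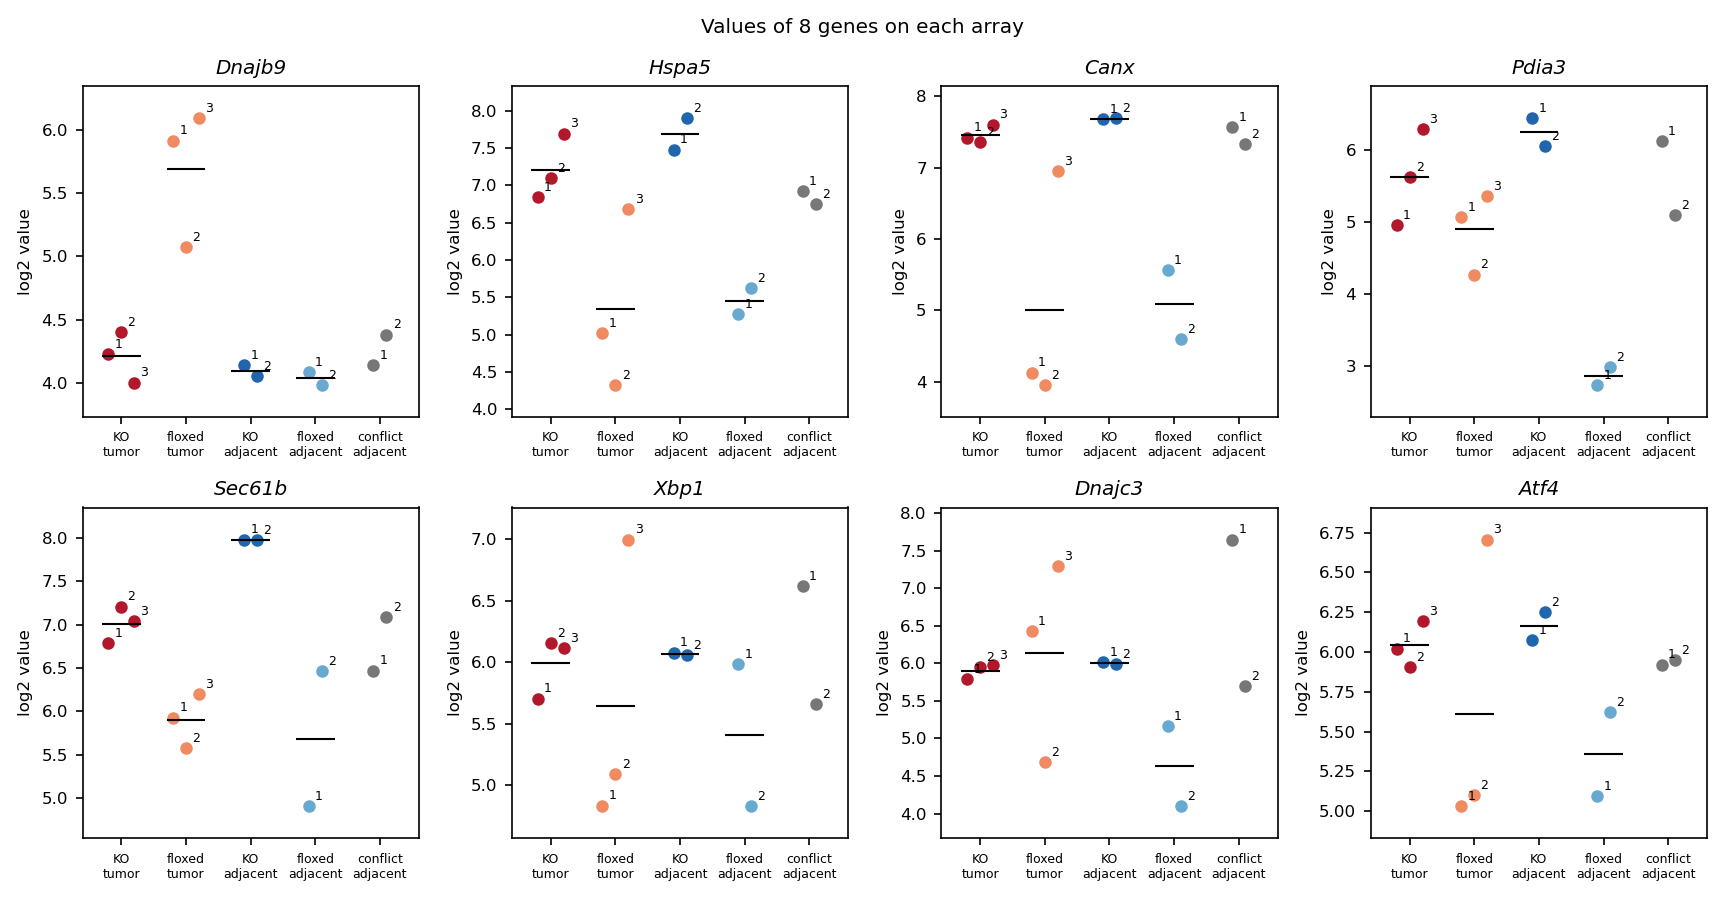
Each panel is 1 gene, each point 1 array numbered by replicate, and the vertical axis is the log2 value. Horizontal lines are group means, and the conflict arrays have none. Dnajb9 is high on all 3 floxed tumor arrays, while for Hspa5, Canx, Xbp1 and Atf4 floxed tumor array 3 stands far above floxed tumor arrays 1 and 2, and Pdia3 is lowest on both floxed adjacent arrays.

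Among disulfide isomerases, which form and rearrange disulfide bonds in the ER, Pdia3 had the largest difference of all 37 genes. Pdia3 (ERp57), the isomerase that works with calnexin and calreticulin, read 6.44 and 6.05 on the KO adjacent arrays, against 2.74 and 2.98 on the floxed adjacent arrays. The floxed adjacent values were the lowest of the 12 arrays and more than 3 units below KO. The difference was 3.39 ± 0.46 (95% interval 2.38 to 4.39; adjusted p = 0.00893). Both floxed values lay below the medians of unnamed probe sets on their arrays, 4.28 and 4.33, so no fold is given. The KO mean was 1.94 above the mean of those medians. Over 13 alternatives it ranged from 1.91 to 3.68 and was called in 9. It was not called without KO adjacent array 1 or 2 (3.19 and 3.58, adjusted p = 0.153 and 0.115), or with the conflict arrays read by title (2.60, adjusted p = 0.266) or by genotype field (1.91, adjusted p = 0.187), and Pdia3 read 6.12 and 5.09 on conflict arrays 1 and 2.

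In tumor epithelium Pdia3 read 4.95, 5.62 and 6.28 on the KO tumor arrays, against 5.06, 4.27 and 5.36 on the floxed tumor arrays. Here KO array 1 lay below floxed arrays 1 and 3, and the difference of 0.72 ± 0.37 did not pass (adjusted p = 0.272). The test of the change between tissues gave -2.66 ± 0.59 (adjusted p = 0.542). Both floxed adjacent arrays were weak, as were 2 of the 3 floxed tumor arrays, on which Pdia3 was 5.06 and 4.27. Within floxed, tumor was 2.03 ± 0.42 above adjacent (adjusted p = 0.182).

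Pdia6 (P5) read 5.54, 5.88 and 5.48 on the KO tumor arrays, against 4.75, 3.68 and 5.37 on the floxed tumor arrays. The groups did not overlap, with KO array 3 only 0.1 above floxed array 3, and the difference was 1.03 ± 0.39 (adjusted p = 0.155). In adjacent epithelium it read 5.60 and 5.96 on the KO adjacent arrays, against 4.74 and 4.21 on the floxed adjacent arrays, and the difference of 1.30 ± 0.47 did not pass either (adjusted p = 0.107). P4hb, the abundant isomerase PDI, read 7.44, 7.89 and 7.88 on the KO tumor arrays, against 7.32, 5.58 and 9.01 on the floxed tumor arrays. Floxed array 3 was the highest of the 12 arrays and floxed array 2 more than 3 units lower, so the groups overlapped widely (difference 0.43 ± 0.70, adjusted p = 0.744). In adjacent epithelium P4hb read 7.20 and 6.86 on the KO adjacent arrays, against 6.0 and 4.34 on the floxed adjacent arrays, without overlap and with a difference of 1.86 ± 0.86 (adjusted p = 0.186).

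Pdia5 read 4.26, 4.34 and 4.39 on the KO tumor arrays, against 4.98, 3.93 and 4.09 on the floxed tumor arrays, with KO arrays inside the floxed range and a difference of 0.00. Next to the tumors it read 5.03 and 4.92 on the KO adjacent arrays, against 5.34 and 4.50 on the floxed adjacent arrays, again overlapping, at 0.06. For Pdia4 the 2 probe sets disagreed. The brighter one gave 0.28 in tumor and 0.93 in adjacent epithelium, and the other -0.14 and -0.71, so no direction is given for this gene.

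In ER-associated degradation, which returns misfolded proteins to the cytosol for destruction, Derl1 rose in KO adjacent epithelium. Derl1, a derlin of the membrane complex through which substrates leave, read 5.99 and 5.92 on the KO adjacent arrays, against 4.73 and 4.29 on the floxed adjacent arrays. The KO values were close together and more than 1 unit above both floxed values, and the difference was 1.45 ± 0.34 (adjusted p = 0.0392). It was called in 5 of 13 alternatives and lost with any of the 4 adjacent arrays left out (1.22 to 1.67, with adjusted p from 0.0645 to 0.249). With the conflict arrays read by title it was 0.71 (adjusted p = 0.398) and by genotype field 1.22 (adjusted p = 0.0918), also not called. In tumor epithelium Derl1 read 5.65, 6.02 and 6.27 on the KO tumor arrays, against 5.22, 5.98 and 5.30 on the floxed tumor arrays. There floxed array 2 overlapped the KO values, and the difference was 0.47 ± 0.28 (adjusted p = 0.335).

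Syvn1, the ubiquitin ligase HRD1, had the largest tumor difference of the group and read 5.58, 5.58 and 5.63 on the KO tumor arrays, against 4.39, 4.91 and 5.83 on the floxed tumor arrays. The KO arrays spanned 0.06 and floxed array 3 was above them, so the difference of 0.55 ± 0.32 did not pass (adjusted p = 0.331). On the adjacent arrays it read 5.40 and 5.51 on the KO adjacent arrays, against 4.74 and 4.79 on the floxed adjacent arrays, with no overlap and a difference of 0.69 ± 0.40 (adjusted p = 0.272). Sel1l, the adaptor that stabilises HRD1, read 4.97, 4.88 and 5.36 on the KO tumor arrays, against 4.16, 4.40 and 6.17 on the floxed tumor arrays, and floxed array 3 was the highest. Next to the tumors it read 4.66 and 4.77 on the KO adjacent arrays, against 4.32 and 4.46 on the floxed adjacent arrays, and conflict array 1, at 6.50, was the highest of all 12.

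Derl2, another derlin, read 4.25, 4.10 and 4.37 on the KO tumor arrays, against 4.54, 3.64 and 4.92 on the floxed tumor arrays. The floxed values lay on both sides of KO, and the difference of -0.13 was the lowest of the group (adjusted p = 0.832). In adjacent epithelium it read 4.22 and 4.36 on the KO adjacent arrays, against 4.05 and 4.01 on the floxed adjacent arrays, within 0.35 on all 4 arrays. Herpud1, Edem1 and Derl3 differed by 0.54, 0.26 and -0.08 in tumor and by 0.92, 0.72 and 0.21 in adjacent epithelium, and none passed. In all 7 genes of the group both KO adjacent arrays lay above both floxed adjacent arrays.

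The 3 genes of the translocon, the channel that admits new chains to the ER, had the highest median difference of the role groups in adjacent epithelium (1.79) and in tumor (0.87). Sec61b, a small subunit of the channel, read 7.98 and 7.98 on the KO adjacent arrays, against 4.91 and 6.47 on the floxed adjacent arrays. The KO arrays were equal to 2 decimals and the floxed arrays differed from each other by more than 1.5, all below KO. KO minus floxed was 2.29 ± 0.44 (adjusted p = 0.0243). Its 3 probe sets gave 2.20, 2.36 and 2.29. Without floxed adjacent array 1 it was 1.51 (adjusted p = 0.0590), and the call was also lost without either KO adjacent array. In tumor epithelium Sec61b read 6.78, 7.21 and 7.04 on the KO tumor arrays, against 5.93, 5.58 and 6.19 on the floxed tumor arrays, without overlap, and the difference of 1.11 ± 0.36 did not pass (adjusted p = 0.123).

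Sec61a1, which forms the pore, read 5.99 and 5.66 on the KO adjacent arrays, against 4.15 and 3.93 on the floxed adjacent arrays. Both KO adjacent values were more than 1.5 above both floxed values, and the difference was 1.79 ± 0.46 (adjusted p = 0.0470). Here too both floxed values were below the medians of unnamed probe sets, and the KO mean was 1.52 above the mean of those medians. Sec61a1 lost its call with any of the 4 adjacent arrays left out. Both genes lost it with the conflict arrays placed by title or by genotype field (Sec61b 1.32 and 1.73, Sec61a1 1.27 and 1.12). In tumor epithelium Sec61a1 read 5.67, 5.63 and 5.71 on the KO tumor arrays, against 4.33, 4.26 and 5.82 on the floxed tumor arrays, floxed array 3 being the highest, and the difference was 0.87 ± 0.37 (adjusted p = 0.196). Ssr1, of the complex that associates with the channel, read 6.19, 6.12 and 6.32 on the KO tumor arrays, against 5.17, 5.82 and 6.09 on the floxed tumor arrays. The KO arrays lay just above floxed array 3, and the difference of 0.52 ± 0.27 did not pass (adjusted p = 0.277). Next to the tumors it read 6.60 and 6.63 on the KO adjacent arrays, against 5.97 and 5.58 on the floxed adjacent arrays, with KO higher by 0.84 ± 0.33 (adjusted p = 0.131).

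The tumor comparison turned on which floxed array was used. Without floxed tumor array 3, against weak-signal arrays 1 and 2, 15 of the 37 genes were higher in KO and Dnajb9 lower, in a fit that called 14.0% of all genes higher and 15.1% lower. The largest were Canx (3.42), Hspa5 (2.54) and Hsp90b1 (1.91), and Xbp1 (1.03), Atf6 (1.25), Ern1 (1.26) and Atf4 (0.97) were among them. The median of the 37 was 0.71, against -0.02 for all genes.

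Against floxed tumor array 3 alone, without the weak-signal arrays, the count ran the other way. Sec61b was higher in KO (0.81, adjusted p = 0.0260), and 9 genes were lower, in a fit that called 9.47% of all genes higher and 9.92% lower and that assumes 1 floxed array to vary as the KO arrays did. The 9 were Dnajb9 (-1.88), Dnajc3 (-1.39), P4hb (-1.27), Calr (-1.15), Sel1l (-1.10), Xbp1 (-1.01), Derl3 (-0.89), Derl2 (-0.68) and Atf4 (-0.67). The median of the 37 was -0.16, against 0.02 for all genes, and 12 were above 0. Xbp1, Atf4 and Sel1l were thus called in opposite directions by the 2 subsets of floxed arrays, and Dnajb9 in the same direction. Floxed tumor array 3 was also the array with the highest exocrine pancreas genes: 9 of 13 were lower in KO in the same fit, among them Clps (-4.15), Ctrb1 (-3.29) and Cela2a (-2.59). In that fit the median difference was -1.23 for 10 epithelial markers and -0.91 for 14 genes of absorptive enterocytes. Fibroblast markers went the other way, with a median of 0.63 for 10 genes, against 0.02 for all genes. With all 3 floxed tumor arrays the fibroblast median was 0.43. The part of these cell types in the lower values of the 9 genes was not tested.

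Between tissues, KO arrays gave the comparison least touched by weak signal. No gene of the 37 was called in KO tumor against KO adjacent epithelium, where limma called 0.0201% of all genes lower and none higher. At an unadjusted p under 0.05 there was 1 of the 37, Sec61b, and 2.47% of all genes. The median difference was -0.08, against 0.04 for all genes, and 15 of the 37 were above 0, against 57.3% of all genes. Arrays did not overlap for P4hb, Sel1l and Syvn1, higher in tumor (17.9% of all genes), and for Ern2, Asns, Canx, Dnajc3, Manf, Pdia5, Sec61b and Ssr1, lower in tumor (14.1% of all genes).

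Fitted on the 5 KO arrays alone, where the spread is no longer shared with the floxed arrays, 1 of the 37 fell in the arrays labelled tumor, beside 1.29% of all genes lower and 0.557% higher. Sec61b read 6.78, 7.21 and 7.04 on the KO arrays labelled tumor, against 7.98 and 7.98 on those labelled adjacent. The groups were 0.77 apart at their nearest arrays, and the difference was -0.97 ± 0.16 (adjusted p = 0.0293). The 3 probe sets gave -0.83, -0.97 and -1.05.

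Pdia5 read 4.26, 4.34 and 4.39 on the KO arrays labelled tumor, against 5.03 and 4.92 on those labelled adjacent. All tumor values were lower, and the difference of -0.65 ± 0.13 missed the threshold (adjusted p = 0.0517). P4hb read 7.44, 7.89 and 7.88 on the KO arrays labelled tumor, against 7.20 and 6.86 on those labelled adjacent, with tumor above adjacent by 0.71 ± 0.19 (adjusted p = 0.120). Ern2 read 5.68, 5.56 and 5.29 on the KO arrays labelled tumor, against 6.0 and 6.05 on those labelled adjacent, lower in tumor by a difference of -0.51 ± 0.15 (adjusted p = 0.170).

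Hsp90b1 had the largest negative difference among chaperones, -0.59 ± 0.26, and its arrays overlapped (adjusted p = 0.366). For Xbp1, Atf6, Eif2ak3 and Atf4 the differences were -0.08, 0.01, -0.08 and -0.12. All of them were within 1 SE of 0. The Wnt target and enterocyte genes that go against the tissue labels moved in the same fit. Of secretory cell markers, 3 of 7 for Paneth cells (Mmp7 -1.27, Pla2g2a -3.64 and Habp2 -1.45) and 1 of 9 for goblet cells (Agr2 -2.16) were lower there, against 1.29% of all genes. The lists did not fall as wholes: their medians were 0.10 and -0.18, against 0.04 for all genes. The other Paneth cell markers lay above 0 (Lyz1 0.42, Ang4 0.10, Defa24 0.44 and Itln1 0.17), as did Zg16 (0.94), Clca1 (0.52) and Atoh1 (0.12) of the goblet cell markers. The part of these cells in the differences above was not tested.

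**Figure D5:**
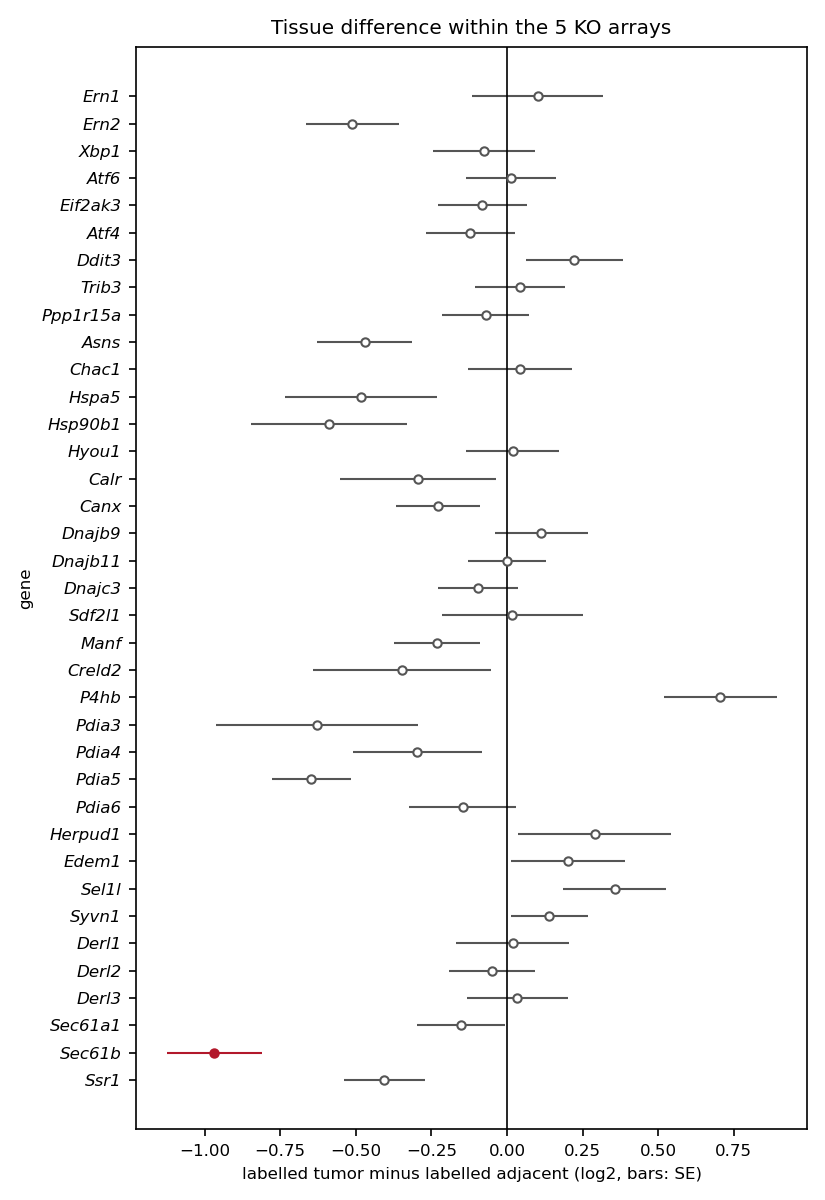
Points are log2 differences of the KO arrays labelled tumor (3) minus those labelled adjacent (2) for the 37 genes, with SE bars, from a fit on these 5 arrays. Sec61b, filled red at -0.97, is the gene that passed, P4hb at 0.71 is the highest, and most genes lie within 0.5 of 0.

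In floxed epithelium no gene of the 37 passed between tumor and adjacent, where limma called 0.00502% of all genes higher and none lower. At an unadjusted p under 0.05 there were 5 of the 37, against 12.5% of all genes. The median was 0.28, against -0.01, and 29 were above 0, against 49.2% of all genes. Arrays did not overlap in 6 genes that were higher in tumor: Ddit3, Dnajb9, Pdia3, Edem1, Derl1 and Sec61a1 (8.64% of all genes), and in none that were lower (10.1% of all genes). P4hb had the largest difference, 2.14 ± 0.79 (adjusted p = 0.328), with floxed tumor array 2 below floxed adjacent array 1. Without floxed tumor array 2, 4 of the 37 rose in tumor, beside 1.07% of all genes: P4hb (3.00), Pdia3 (2.35), Dnajc3 (2.23) and Dnajb9 (1.97). In that fit floxed tumor array 3 weighs more, and it is the only strong array of its genotype.

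Over all 12 arrays, 6 labelled tumor and 6 labelled adjacent, no gene of the 37 and none of all genes was called by limma, while 2 of the 37 and 2.57% of all genes had an unadjusted p under 0.05. These 2 were Dnajb9 (0.82) and Pdia5 (-0.58). Of the 37, 18 were above 0, against 50.8% of all genes, and tumor and adjacent arrays overlapped for each of them, as they did for all but 0.0652% of genes on the higher side and 0.130% on the lower. The interaction of genotype and tissue called none of the 37 and none of all genes. At an unadjusted p under 0.05 it held 2 of the 37, Pdia3 and Dnajb9, and 6.42% of all genes. The difference between tissues in the genotype difference was above 0 for 4 of the 37, against 52.4% of all genes.

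Genes of the same pathways outside the 37 gave similar counts. In KO against floxed tumor epithelium, 1 of 17 other genes of translocation and signal peptide processing was called (Spcs1, a signal peptidase subunit, 2.58, adjusted p = 0.0460). So was 1 of 19 other foldases (Txndc12, 1.46, adjusted p = 0.0479), where higher calls made up 0.682% of all genes. None was called of 18 genes of N-glycosylation, 17 of degradation, 16 of ER to Golgi traffic or 17 other stress regulators. In adjacent epithelium the calls were all higher in KO: 3 of 17 for translocation (Spcs1 2.79, Ssr2 2.68 and Sec61a2 1.71), 3 of 18 for N-glycosylation (Lman2 1.94, Ddost 1.61 and Ostc 1.53), 3 of 16 for traffic (Surf4 2.09, Kdelr1 1.88 and Arf4 1.69), and 1 each for foldases (Dnajc10 1.20), degradation (Vcp 1.43) and stress regulators (Rtcb 1.24). Higher calls made up 2.91% of all genes there, the share to set beside these counts and the adjacent marker counts below. List medians were 0.59 to 1.09 in adjacent epithelium and 0.12 to 0.57 in tumor for these 6 lists. Against floxed tumor array 3 alone the tumor medians were -0.40 for translocation, -0.14 for N-glycosylation, 0.16 for foldases, -0.15 for degradation, -0.43 for traffic and 0.16 for stress regulators. Markers of goblet cells, the mucus-secreting cells, moved with the adjacent differences: 2 of 9 were called higher in KO (Agr2, a disulfide isomerase family member of goblet cells, 4.31, and Clca1 3.42), and their median was 6.77 to 7.87 on KO arrays, against 4.52 to 5.29 on weak-signal arrays. So did other markers: 5 of 13 Wnt target genes (median 1.52) and 2 of 7 Paneth cell markers (median 0.09) were called higher in KO adjacent epithelium, and the 10 epithelial markers, none of them called, had a median of 1.86. Of 10 plasma cell genes 1 was called higher there (Sdc1 1.43), and their median was -0.05. The part of these markers in the differences of the 37 genes was not tested.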

How the data were processed

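RNA of laser-dissected epithelium was prepared with the GeneChip WT Pico kit and biotin label, per the labels' protocols, and measured on 12 arrays. The deposited log2 values came from Partek and RMA (robust multi-array averaging), per the submitters' processing notes, which give no version; other steps are not given in the sources used here. From these values, probe sets with 1 symbol were kept (21789 of 35556) and the brightest of each gene was used, for 19938 genes.

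The 10 arrays of the 4 groups without conflicting labels were fitted together with limma 3.58.1 in R 4.3.3 (lmFit and eBayes, two-sided, Benjamini-Hochberg adjustment). Genes at an adjusted p under 0.05 are called, and errors are SE. Arrays with a median correlation under 0.7 with the others are called weak-signal arrays. Precision is limited by the number of arrays. The steps were tested on simulated data.

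The genes, their branches and the other lists were chosen with earlier results of these data known. Named with array values are the sensors, called genes and many of the extremes of each role group. For some of these genes the values of a tissue or of the conflict arrays are left out. From the other lists, at most 4 called genes were named. Deviations of same-numbered tumor arrays had correlations of 0.105, 0.121 and 0.347 between the genotypes. Among differently numbered pairs the highest was 0.246, between KO array 1 and floxed array 2, so the numbers do not clearly pair the arrays. A fit with the number as a block was added, but the labels do not say what a number shares. On both KO adjacent arrays the number in the title differs from that in the description, and the block used the title.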

Additional observations from a re-analysis of the deposited data

How the results depend on the processing

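Counts of the 37 genes moved with the settings, and the cause was not tested. In tumor epithelium, KO against floxed, 1 gene was called, against 0 after quantile normalization, 0 with a trended and robust variance, 0 with only the arrays compared, 0 with the conflict arrays read by title, 3 with the replicate block, 3 at an adjusted p under 0.1, 8 with array weights and 10 without weak-signal arrays, and 0 to 16 with 1 array left out, 16 without floxed tumor array 3. In adjacent epithelium 4 were called, against 1, 2, 12 and 0 under the first 4 of these settings, 0 with the conflict arrays read by genotype field, 9 with the block, 9 at an adjusted p under 0.1, 14 with array weights, and 0 to 2 with 1 array left out. Same-numbered adjacent arrays did not deviate together (correlation 0.0099), so there the block adds no pairing. Tumor against adjacent, with 0 called in each genotype and over all arrays, gave 2 with array weights, 1 without weak-signal arrays and 1 with only the arrays compared in KO, 0 to 4 with 1 array left out in floxed, and 1 with array weights over all arrays. The block changed no other count by more than 1.5 times. Without weak-signal arrays, Xbp1 (-1.01), Atf4 (-0.67), P4hb (-1.27) and Sel1l (-1.10) turned from positive to called negative differences in tumor epithelium. That setting could give no adjacent genotype comparison, no floxed tissue comparison and no interaction, since the groups lost all their arrays.

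Counts over all genes in tumor epithelium were 215, against 9 after quantile normalization, 98 without the dimmest 30% of genes, 336 with all probe sets, 61 with a trended and robust variance, 8 with only the arrays compared, 0 with the conflict arrays by title, 132 by genotype field, 782 with the block, 2907 with array weights, 3866 without weak-signal arrays and 1181 at an adjusted p under 0.1. In adjacent epithelium they were 1209, against 207, 454, 1507, 851, 3435, 1, 48, 2450 and 4034 in that order up to array weights, and 3346 at an adjusted p under 0.1. Between tissues in KO they were 4, against 1042 with array weights, 368 without weak-signal arrays, 368 with only the arrays compared and 0 to 8 under the other settings, and in floxed 1, against 18 after quantile normalization and 213 higher and 130 lower without floxed tumor array 2. Over all 12 arrays 0 were called, against 127 with array weights.

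With all probe sets fitted, each gene was still read from its brightest one, so its difference was fixed and only its adjusted p was recomputed. All 222 differences of single genes kept their side of the threshold there, which does not test the choice of probe set. After quantile normalization 190 of 222 kept their direction and their side of the threshold, and 28 uncalled differences changed sign. With 1 array left out, 1327 fits kept both, 191 changed sign without a call in either fit, 17 lost a call and 19 gained one. Signal over background limits 13 of the 37 genes, which lay within 1 log2 unit of the median of unnamed probe sets on at least 1 KO array, and on weak-signal arrays 21 of the 37 lay at or below that median at least once.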
